A study of Mus musculus with 6 samples.

Results

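The Elavl, Celf and Musashi genes encode RNA-binding proteins that act on messenger RNA after transcription. Elavl2, Elavl3, Elavl4, Celf2, Celf3, Celf4, Celf5, Celf6, Msi1 and Msi2 were followed here, 10 of the 19938 genes with a probe set of their own. They were chosen by name, with earlier results of these data known. All 10 had a probe set annotated to that gene alone. For Celf2, which had a second one, the probe set with the higher mean over the 6 arrays was kept. The samples were brain cells of C57BL/6J mice separated by fluorescence-activated cell sorting with a dual reporter: 3 arrays of GFP+ cortical neural progenitors and 3 arrays of RFP+ neuronal progeny, labelled as differentiated. No treatment, mutation or animal age was given for either group, nor the promoters behind the reporters, and the RFP+ label names the brain without a region. The labels do not tie the 3 samples of a group to separate animals. The spread behind the p-values is therefore one between samples, which may be technical.

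Elavl proteins, also called Hu proteins, bind U-rich and AU-rich stretches and are known for stabilising messenger RNAs and for steering splicing. Elavl2, Elavl3 and Elavl4 are the forms known from neurons, whereas Elavl1 is found in most cell types. Celf proteins bind GU-rich stretches and regulate splicing, decay and translation, and Musashi proteins bind short sites with a UAG core and are known as translational regulators in neural stem cells.

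All log2 differences below are RFP+ neurons minus GFP+ progenitors on log2(intensity + 16), with the standard error (SE), so a positive value is higher in neurons. Folds were taken from these differences, and the offset of 16 makes them smaller for dim genes. Adjusted p-values come from limma, corrected by the Benjamini-Hochberg method across the 19938 genes, and the threshold was 0.05. limma draws the spread of each gene toward that of all genes, which gave 15.4 of the 19.4 degrees of freedom. The SE of a gene thus follows the pooled spread more than its own. An array is a sample of bulk RNA, in which fewer cells of a type and less RNA per cell cannot be told apart. The number of arrays limits the precision.

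The families went different ways. All 5 Celf genes and Elavl3 were higher in the neurons, by 2.03-fold to 3.55-fold. Msi1 and Msi2 were higher in the progenitors, by 1.69-fold and 2.01-fold. Elavl2 and Elavl4 did not pass the threshold. In counts, 6 of the 10 genes passed as higher in neurons and 2 as higher in progenitors, where 16.2% and 13.8% of all genes passed in these directions. The 3 neuron arrays all lay above the 3 progenitor arrays for 6 of the 10 genes and all below them for 3, against 24.1% and 19.9% of all genes. Across all genes the median log2 difference was 0.08, with quartiles of -0.31 and 0.42.

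**Figure D1:**
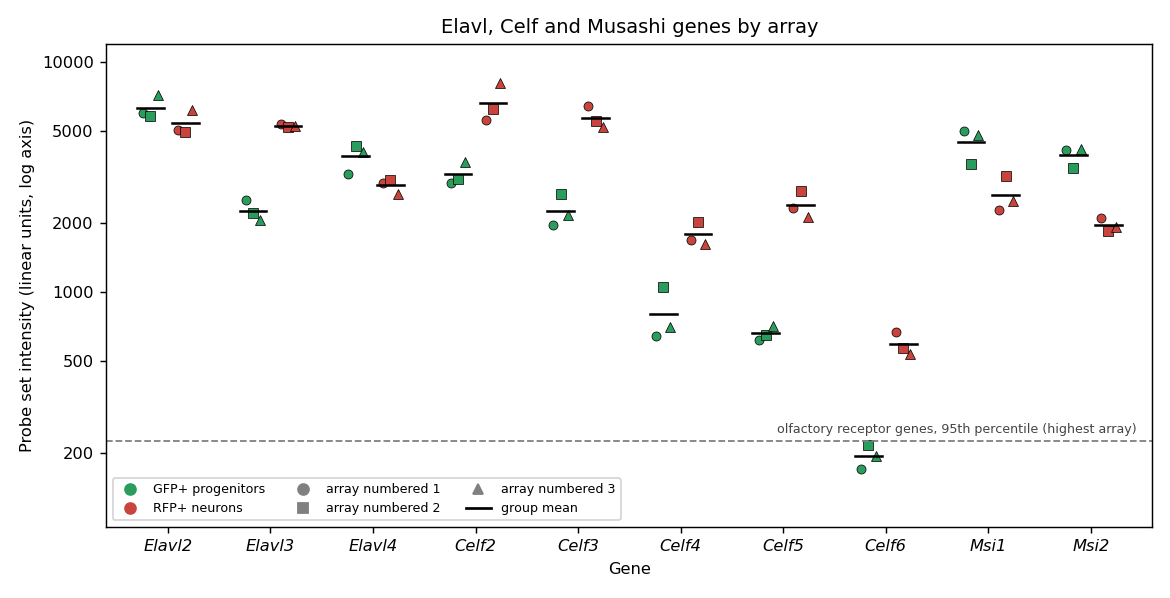
Probe set intensity (log axis) of the 10 genes on each array, with GFP+ progenitors in green, RFP+ neurons in red, marker shapes for the array number in the sample title and black lines for group means of 3 arrays. The Celf genes and Elavl3 have all red points above all green points, Msi1 and Msi2 the reverse, and only Celf6 in progenitors (169.9 to 215.9) lies under the dashed line, the highest 95th percentile of olfactory receptor genes on any array (223.8).

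The labels were first checked against markers. All 9 radial glia markers measured were higher in the GFP+ arrays, as were all 6 intermediate progenitor and all 5 cell division markers, and all 11 neuron markers measured were higher in the RFP+ arrays. Neuron markers were also present in the progenitor arrays, with a summed intensity of 24776.1 to 28752.0 there against 65817.0 to 70763.8 in the neurons. Markers of other cells were also higher in the GFP+ arrays: all 7 endothelial markers (summed intensity 1492.4 to 5650.5 against 526.0 to 767.3), all 6 mural cell markers (4684.7 to 6404.0 against 373.6 to 436.2), 4 of 5 oligodendrocyte lineage markers and 3 of 5 astrocyte markers. In the neurons 6 of the 7 endothelial and all 6 mural markers were under the 95th percentile of olfactory receptor genes, a guide to the near-background level. All 6 Cajal-Retzius markers were higher in the neurons, 2 of 7 interneuron markers passed as higher in the progenitors, and none of the 6 microglial or 4 blood markers measured passed. The part of these cells in the differences below was not tested.

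The Elavl genes split within the family. Elavl3, which encodes HuC and is widely used as a marker of neurons, had intensities of 2519, 2201 and 2051 in the progenitor arrays and 5361, 5232 and 5251 in the neuron arrays. The groups were far apart and the neuron arrays were nearly level, with a mean of 5281.3 ± 69.6 against 2257.0 ± 238.8 (SD, n = 3 arrays each). Elavl3 was 2.34-fold higher in neurons (log2 difference 1.23 ± 0.20, adjusted p = 6.80e-05), and 3.91% of all genes had a larger difference in this direction.

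Elavl2, which encodes HuB, measured 6024, 5828 and 7176 in progenitors and 5076, 4983 and 6197 in neurons. These ranges overlapped, since the highest neuron array exceeded the lower 2 progenitor arrays, but between same-numbered arrays the neurons were lower in all 3 cases, by log2 differences of -0.25, -0.23 and -0.21. The log2 difference was -0.23 ± 0.20 (adjusted p = 0.416), with a 95% interval of -0.65 to 0.20. With the replicate number as a block the interval was -0.57 to 0.11 (limma adjusted p = 0.252). The log2 difference of Elavl3, 1.23, lay outside both intervals.

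Elavl4, which encodes HuD, a protein known for stabilising the messenger RNA of the growth cone gene Gap43, measured 3256, 4330 and 4077 in progenitors and 2977, 3079 and 2675 in neurons. Every progenitor array lay above every neuron array, yet the gap was small beside the spread. The log2 difference was -0.41 ± 0.20 (adjusted p = 0.139), with a 95% interval of -0.83 to 0.02. With the block the interval was -0.78 to -0.04, which leaves out 0, and the adjusted p of 0.0811 still missed the threshold. The GFP+ means of Elavl2 and Elavl4, 6342.9 ± 728.6 and 3887.6 ± 561.3 (SD, n = 3), were far above the olfactory receptor level of 215.1 in that group. Neuron markers summed to 24776.1 to 28752.0 on the same arrays, and their part in these values was not tested.

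Elavl1, the broadly expressed relative outside the 10 genes, measured 4912, 5662 and 5567 in progenitors and 3467, 3763 and 3282 in neurons. It was 1.53-fold higher in progenitors (log2 difference -0.62 ± 0.20, adjusted p = 0.0232). Its call ended when progenitor array 2, neuron array 1 or neuron array 3 was left out (adjusted p = 0.0594, 0.0770 and 0.0807), and when both arrays numbered 1 were (adjusted p = 0.0812), while the log2 difference stayed between -0.68 and -0.57 over all 19 alternatives.

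Whether the Elavl genes changed unequally was examined by taking the log2 ratio of a pair of genes within each array and comparing it between groups. The Elavl3 over Elavl4 ratio rose by 1.63 from progenitors to neurons, and its 3 neuron values (0.76 to 0.97) did not overlap the progenitor values (-0.99 to -0.37). The Elavl2 over Elavl3 ratio moved by -1.45, again without overlap. The Elavl2 over Elavl4 ratio moved by 0.18 with overlapping groups. An exact permutation test (two-sided) gave p = 0.1 for each of the first pair of ratios and p = 0.6 for the last, where 0.1 is the smallest that 3 against 3 arrays allow. Over the 14 ratios tested in the 3 families, the adjusted values were 0.233 and 0.646, so none could pass.

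The start-site windows of the 3 neuronal Elavl genes are shown because the genes are close relatives of which only Elavl3 passed the threshold. They come from RefSeq on GRCm38.p6, each on the minus strand and running 5' to 3' from 250 bases before to 50 bases after an annotated start. Where a gene had several starts the most upstream one is shown. Capitals mark CAGCTG, an E-box of the kind that proneural and neuronal basic helix-loop-helix factors bind. Both CAGCTG, which reads the same on either strand, and CAGATG were searched on both strands, and matches of these 2 motifs cannot overlap. They occurred in 16.3% and 17.15% of all 32851 windows of this length in the table. Elavl2 lies at chr4:91399935-91400234 (1 of 6 windows of the gene), Elavl3 at chr9:22051974-22052273 (its only window) and Elavl4 at chr4:110351862-110352161 (1 of 4 windows).
Elavl2: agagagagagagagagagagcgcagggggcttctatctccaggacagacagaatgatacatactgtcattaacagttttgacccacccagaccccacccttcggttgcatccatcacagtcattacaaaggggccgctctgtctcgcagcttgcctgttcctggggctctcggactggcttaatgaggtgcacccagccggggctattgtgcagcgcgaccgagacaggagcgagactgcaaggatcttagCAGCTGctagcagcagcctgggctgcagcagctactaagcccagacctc
Elavl3: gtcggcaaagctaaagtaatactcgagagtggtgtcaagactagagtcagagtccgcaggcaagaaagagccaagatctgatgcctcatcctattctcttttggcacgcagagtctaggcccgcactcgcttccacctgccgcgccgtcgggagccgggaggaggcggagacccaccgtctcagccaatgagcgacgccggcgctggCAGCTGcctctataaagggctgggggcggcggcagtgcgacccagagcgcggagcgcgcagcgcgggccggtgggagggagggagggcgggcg
Elavl4: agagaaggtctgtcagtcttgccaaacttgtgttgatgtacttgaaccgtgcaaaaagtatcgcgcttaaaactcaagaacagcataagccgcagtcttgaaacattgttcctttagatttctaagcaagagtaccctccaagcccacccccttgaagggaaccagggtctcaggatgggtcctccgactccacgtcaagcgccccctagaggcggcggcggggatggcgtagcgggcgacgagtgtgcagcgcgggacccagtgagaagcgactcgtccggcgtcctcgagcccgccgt
Elavl2 and Elavl3 each held CAGCTG once in the window shown and Elavl4 held neither motif there. Among all windows of each gene, CAGCTG stood in 3 of 6 for Elavl2, 1 of 1 for Elavl3 and 2 of 4 for Elavl4, and CAGATG in 3 of 4 for Elavl4. CAGCTG occurred in windows of a gene that rose and of genes that did not pass. The windows shown held 10, 29 and 23 CpG dinucleotides, where the median over the table was 7.

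All 5 Celf genes followed here were higher in neurons than in progenitors, and none of their groups overlapped. Celf5, a brain-enriched splicing regulator, differed most of the 10 genes. Its intensities were 620.0, 649.4 and 708.6 in progenitors and 2312, 2742 and 2117 in neurons. The progenitor arrays were close together and the lowest neuron array was still far above them. Celf5 was 3.55-fold higher in neurons (log2 difference 1.83 ± 0.20, adjusted p = 6.32e-07), and 1.31% of all genes had a larger difference.

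Celf6, a relative of Celf5 that also regulates splicing, measured 169.9, 215.9 and 192.8 in progenitors and 671.8, 572.6 and 538.1 in neurons. Its progenitor mean of 192.8 ± 23.0 (SD, n = 3) lay under the 95th percentile of olfactory receptor genes in that group (215.1), so the size of its change depends on the offset and on the background. The log2 difference was 1.55 ± 0.20 (2.92-fold, adjusted p = 5.70e-06), and over the 19 alternatives it ran from 1.36 to 1.62.

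Celf3, known mainly from the nervous system, measured 1956, 2671 and 2155 in progenitors and 6426, 5547 and 5217 in neurons. The lowest neuron array was far above progenitor array 2, the highest of its group. Celf3 was 2.54-fold higher in neurons (log2 difference 1.34 ± 0.21, adjusted p = 4.00e-05).

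Celf4, whose loss is known to cause seizures in mice, measured 645.0, 1051 and 702.4 in progenitors and 1689, 2024 and 1623 in neurons. Array 2 was the highest of its group on both sides. Celf4 was 2.24-fold higher in neurons (log2 difference 1.16 ± 0.22, adjusted p = 3.85e-04).

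Celf2, which is expressed in brain, heart and muscle and acts in splicing and in messenger RNA stability, measured 2994, 3088 and 3665 in progenitors and 5598, 6262 and 8122 in neurons. It had the smallest fitted difference of the 5, 2.03-fold (log2 difference 1.02 ± 0.21, adjusted p = 8.63e-04). Its second probe set, which was not kept, was dimmer, with means of 311.6 in progenitors and 992.0 in neurons and a log2 difference of 1.67, and so pointed the same way with a larger size. Averaging both probe sets gave 1.34, the upper end of the range for Celf2 over its alternatives.

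Celf1, the broadly expressed relative outside the 10 genes, measured 5320, 4506 and 5338 in progenitors and 4290, 4364 and 4275 in neurons, with a log2 difference of -0.22 ± 0.20 (adjusted p = 0.408, 95% interval -0.64 to 0.19). The neuron increase of the other Celf genes lay outside this interval, since the smallest of their log2 differences was 1.02. A second, dimmer Celf1 probe set, which was not kept, had a log2 difference of -0.06. Averaging both Celf1 probe sets gave -0.14 (limma adjusted p = 0.613).

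Within the Celf family the ratios moved by 0.81 or less on the log2 scale. Of the 10 within-array ratios among the 5 Celf genes, 4 had groups that did not overlap. This count takes both directions together. For single genes, 24.1% of all genes had no overlap as higher in neurons and a further 19.9% as higher in progenitors, and no such share was computed for ratios. The ratios share genes, so their count is not one of independent results. Against Celf5, the ratios of Celf2, Celf3 and Celf4 moved by -0.81, -0.48 and -0.66 from progenitors to neurons. The Celf2 ratios rest on its kept probe set (log2 difference 1.02). Its second probe set (1.67) lay closer to Celf5 (1.83), and ratios with that probe set were not computed. The Celf3 over Celf6 ratio moved by -0.20, but by -0.03 with an offset of 64, which bears on the dim progenitor level of Celf6. The Celf2 over Celf4 ratio moved by -0.14 and the Celf5 over Celf6 ratio by 0.28, both with overlap. Each ratio without overlap had p = 0.1 in the exact permutation test (adjusted 0.233), the smallest possible.

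**Figure D2:**
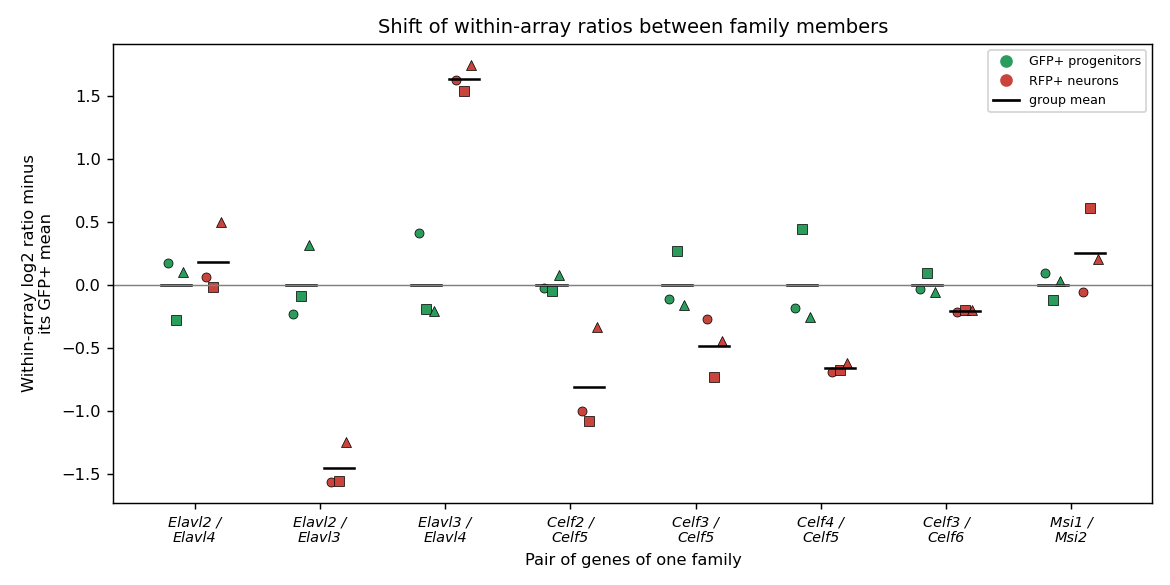
Within-array log2 ratio of pairs of genes of one family, minus its mean over the 3 GFP+ arrays (log2 units), with green points for progenitors, red points for neurons, shapes for the array number (circle 1, square 2, triangle 3) and black lines for group means. The 6 pairs without overlap, Elavl2 over Elavl4 and Msi1 over Msi2 are drawn, with Celf2 from its kept probe set. The Elavl3 over Elavl4 ratio moved most (1.63), and the Msi1 over Msi2 ratio moved by 0.25 with overlapping groups.

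The Musashi genes went the other way. Msi2, which is known from neural and blood stem cells, measured 4166, 3459 and 4187 in progenitors and 2090, 1839 and 1913 in neurons. The lowest progenitor array was well above the highest neuron array. Msi2 was 2.01-fold higher in progenitors (log2 difference -1.01 ± 0.20, adjusted p = 5.91e-04), and 6.97% of all genes had a larger difference in this direction. Its call held in all 19 alternatives.

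Msi1, a classical marker of neural stem cells that is known to repress translation of the Notch inhibitor Numb, measured 5017, 3600 and 4817 in progenitors and 2269, 3180 and 2489 in neurons. The groups were separated only narrowly, between progenitor array 2 and neuron array 2. Msi1 was 1.69-fold higher in progenitors (log2 difference -0.76 ± 0.22, adjusted p = 0.0114). Its call ended without neuron array 1 (log2 difference -0.65, adjusted p = 0.0704) and without both arrays numbered 1 (-0.56, adjusted p = 0.170).

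The means of both Musashi genes in neurons, 2646.0 ± 475.4 for Msi1 and 1947.5 ± 128.8 for Msi2 (SD, n = 3), were far above the olfactory receptor level of 208.9 in that group. The Msi1 over Msi2 ratio moved by 0.25 from progenitors to neurons, with overlapping groups and p = 0.3 in the exact permutation test. Its neuron values ran from 0.12 to 0.78 and its progenitor values from 0.06 to 0.27.

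The window of Msi2 is shown as that of the gene of the 10 that was most progenitor-high. It lies at chr11:88718228-88718527 on the minus strand of GRCm38.p6 (RefSeq, the most upstream of 3 windows) and is printed 5' to 3'.
Msi2: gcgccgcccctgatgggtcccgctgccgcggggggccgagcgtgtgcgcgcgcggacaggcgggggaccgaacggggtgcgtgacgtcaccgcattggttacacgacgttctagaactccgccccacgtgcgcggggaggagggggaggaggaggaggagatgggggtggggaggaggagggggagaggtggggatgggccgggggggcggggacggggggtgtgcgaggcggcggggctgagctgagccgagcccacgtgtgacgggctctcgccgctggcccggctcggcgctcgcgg
It held 39 CpG dinucleotides, and 95.6% of all windows held fewer. Neither CAGCTG nor CAGATG was found in it or in the other windows of Msi2. For the genes with a neuron increase and a window, the most upstream windows ranged from 4 CpG dinucleotides in Celf2 and Celf3 to 31 in Celf6. The choice of start matters here. Over all windows of a gene, Celf2 ran from 4 to 48 and Msi2 from 37 to 39. Windows were found for 8 of the 10 genes, all but Celf4 and Msi1.

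**Figure D3:**
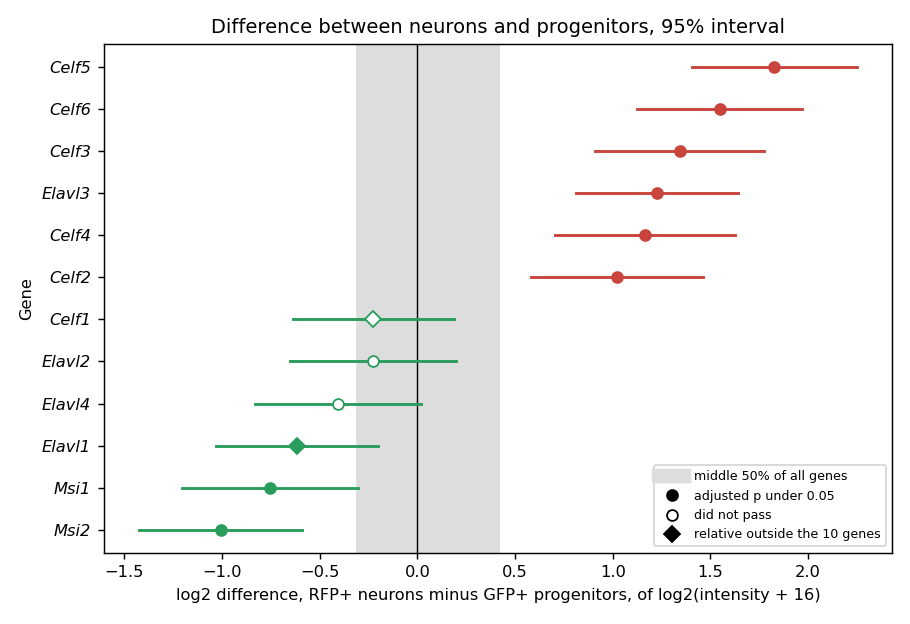
Log2 difference, RFP+ neurons minus GFP+ progenitors on log2(intensity + 16), with the limma 95% interval for the 10 genes (circles) and for Elavl1 and Celf1 (diamonds), filled where the adjusted p passed 0.05. Celf5 lies farthest to the neuron side (1.83) and Msi2 farthest to the progenitor side (-1.01), and the intervals of Elavl2, Elavl4 and Celf1 include 0.

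Family relatives, factors acting on AU-rich elements or poly(A) tails, reported targets and other neural RNA-binding proteins were taken from lists of general knowledge. Over the 89 different genes measured in these lists, Elavl1, Celf1 and Msi1 among them, 22 were higher in neurons (24.7%) and 19 in progenitors (21.3%), beside 16.2% and 13.8% of all genes. The shares of all genes include many dim genes. Without the dimmest 50% of genes, 2422 and 2191 of the 9969 genes left passed in these directions, and 41 genes of the lists passed. The higher shares of the lists are therefore not read as a property of the lists.

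Of the factors that act on AU-rich elements or shorten poly(A) tails, 16 were measured, of which 3 were higher in progenitors, 2 in neurons and 11 did not pass (median log2 difference -0.03, against 0.08 over all genes). Zfp36l1, which targets AU-rich messenger RNAs for decay, was 11.8-fold higher in progenitors, with a mean of 1269.6 ± 90.0 against 93.6 ± 16.3 (SD, n = 3 arrays each, adjusted p = 5.85e-10). Its relative Zfp36l2 was 4.57-fold higher in progenitors, at 823.5 against 170.1. The neuron means of both lay under the olfactory receptor level of 208.9, so the sizes of these folds depend on background and offset. Btg2, an antiproliferative gene that recruits deadenylases, was 4.65-fold higher in progenitors. The third relative, Zfp36, was higher in neurons (adjusted p = 0.0225), at means of 115.5 and 204.4 that were both under the olfactory receptor level.

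Reported targets of the Elavl proteins were mixed. Of 14 measured, 5 were higher in neurons, 3 in progenitors and 6 did not pass (median log2 difference 0.20). Gap43 was 3.81-fold higher in neurons (2005.2 ± 497.1 against 7534.6 ± 340.0, SD, n = 3, adjusted p = 6.76e-07), and Mapt, which encodes the microtubule protein tau, 2.93-fold. The adhesion gene Amigo2 also passed as higher in neurons, at 69.8 against 191.4, both under the near-background level. The kinase gene Camk2a was 3.17-fold higher in progenitors, at 410.9 against 120.0, and its neuron mean was under that level, so the size depends on background and offset. Msi1 is itself one of these reported targets.

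Reported Celf and Musashi targets did not share one direction either. Of 8 Celf targets, 2 were higher in neurons, Mapt and the sodium channel gene Scn8a (1.54-fold), 1 was higher in progenitors, and 5 did not pass (median 0.37). That gene was Numb, which was 1.98-fold higher in progenitors (906.9 ± 127.6 against 447.0 ± 18.3, SD, n = 3, adjusted p = 7.56e-04) and is a reported target of Msi1 as well. Of 9 Musashi targets, 4 were higher in neurons, 4 in progenitors and 1 did not pass (median 0.33). The cyclin gene Ccnd1 was higher in progenitors, at a mean of 2061.7 ± 306.4 against 175.7 ± 21.8 (SD, n = 3). Its neuron mean was under the near-background level of 208.9, so the fitted 10.8-fold depends on background and offset. The microtubule gene Dcx was 1.67-fold and Myc 2.55-fold higher in neurons. These values are messenger RNA levels and give no reading of translation.

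Other RNA-binding proteins of neural cells also went both ways. Of 43 measured, 11 were higher in neurons, 8 in progenitors and 24 did not pass (median 0.16). The largest neuron increases were those of the splicing regulator Khdrbs2 (4.54-fold), of Rbm24 (4.30-fold) and of Nanos1 (2.76-fold). Mbnl3, a muscleblind splicing factor gene, passed as higher in progenitors, at means of 192.2 and 50.7 that were both under the near-background level.

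**Figure D4:**
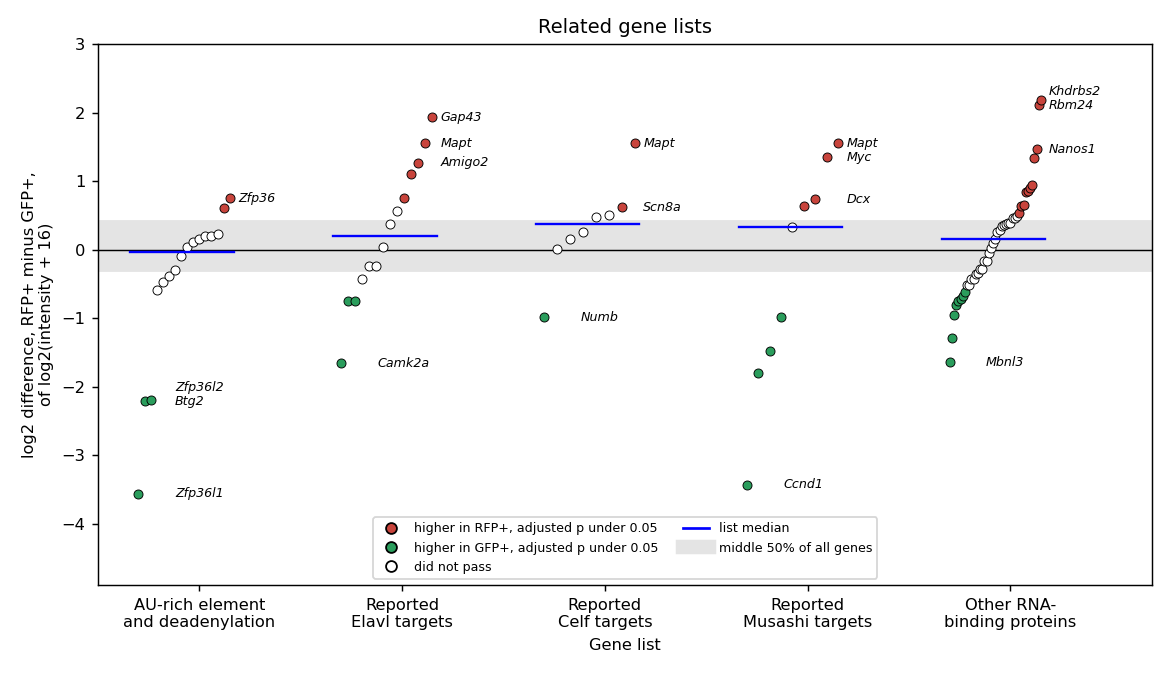
Log2 difference, RFP+ neurons minus GFP+ progenitors, of each measured gene of 5 related lists, ordered by size within a list. Red and green points passed the threshold, white points did not, blue lines mark list medians (-0.03 to 0.37) and the grey band holds the middle 50% of all genes (-0.31 to 0.42); every list has passing genes in both directions.

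For 1 gene of each family the genes with the most similar profile over the 6 arrays were looked up among 11711 genes above the olfactory receptor level, leaving out the 10 genes. By Pearson correlation, Elavl3 was most like Lrrc24, Ssbp3 and Eipr1 (r = 0.999, 0.999 and 0.999). Celf4 was most like Tmem178b, St6gal2 and Tspan13 (r = 0.997 each), and Msi1 was most like Isoc2b, Gpd2 and Psmd3 (0.987, 0.985 and 0.983). The 6 points fall into 2 groups of 3 arrays, so these values mostly describe the step between groups.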

How the data were processed

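RNA of 3 GFP+ and 3 RFP+ samples was measured on Affymetrix whole-transcript arrays, 1 per sample, per the labels. The deposited values were intensities per probe set on a linear scale, which the authors made with the Affymetrix Expression Console, per the submitters' processing notes; of its version, background correction and normalization nothing is given in the sources used here. Array medians were 210.3 to 221.1, and 53 to 112 probe sets per array were at 0. Of 35557 probe sets, 21789 carried 1 gene symbol, 1621 several and 12147 were unnamed here, and 21698 matched RefSeq by Entrez ID. Per gene the probe set with the highest mean intensity was kept, with no filter on dim genes.

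log2(intensity + 16) was fitted with limma 3.58.1 in R 4.3.3 (lmFit and eBayes, a two-sided test with 15.4 prior degrees of freedom). Exact permutation tests compared within-array ratios. The fit was tested on simulated data. The 1027 olfactory receptor genes served as a near-background guide. Figures used Python 3.11.15 and matplotlib 3.10.9.

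Titles carry replicate numbers. Deviations from group means correlated at 0.204, 0.288 and 0.361 across genes for same-numbered arrays of the 2 groups and at -0.266 to 0.00416 otherwise. No label says what the numbers stand for. The main fit and the permutation tests did not use them as pairs, and alternatives with the replicate number did. Fits with the replicate block and 18 other alternatives were run.

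The 10 genes and all lists were chosen with earlier results of these data known. Named list genes are, per list, the 3 largest passing in the majority direction (the median's direction where counts tied) and the largest passing the other way.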

Additional observations from a re-analysis of the deposited data

How the results depend on the processing

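The 6 genes higher in neurons passed in all 19 alternatives, and Msi2 did as well. Elavl2, Elavl4 and Celf1 passed in none (adjusted p = 0.0581 to 0.310 for Elavl4, 0.253 to 0.684 for Elavl2 and 0.232 to 0.650 for Celf1), and no gene of the 10 changed direction. In many alternatives the direction was bound to hold. Several changed only the spread or the set of genes tested and kept each log2 difference as it was. Leaving out arrays cannot reverse a gene whose groups do not overlap, and of the 10 genes only Elavl2 had overlapping groups. With the replicate block, 6 of the 10 genes passed as higher in neurons and 2 as higher in progenitors, with 4047 and 3324 of all genes against 3236 and 2742 without it, and the block changed none of the calls of the 10 genes, Elavl1 and Celf1. Leaving out 1 array at a time gave 6 genes of the 10 higher in neurons each time, and 1 to 2 higher in progenitors, the 1 being without neuron array 1, where Msi1 missed the threshold. Without both arrays numbered 1, which leaves 2 arrays a group, 1 of the 10 genes was higher in progenitors, 1848 of all genes were higher in neurons, and 25 related genes passed against 41. The count of within-array ratios without overlap was 6 of 14, and 6 to 8 when 1 array was left out. Leaving out an array cannot make separate groups overlap, so this count could not fall and is no check of the ratios. These ratios share genes and were counted in both directions together. Of single genes, 24.1% had no overlap in 1 direction and a further 19.9% in the other, and no such share was computed for ratios. Intensities near the olfactory receptor level limit the size, not the direction, of the change of Celf6.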
